A study of Mus musculus with 4 samples.

Results

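Resting fibroblast identity genes are 10 genes by which quiescent fibroblasts are recognised, namely Dcn, Lum, Dpt, Tcf21, Pdgfra, Fbln1, Mfap5, Gsn, Ddr2 and S100a4. Their chromatin was examined in a ChIP-seq study of histone H3 propionylated at lysine 23 (H3K23) in mouse hearts. Members were found by symbol in the gene list of each of the 29210 merged peak regions, which name 17640 genes, and all 10 were listed, in 17 regions. For each gene the main value is that of the region with its middle nearest to the transcription start, and other regions listed for the gene are given beside it.

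The study had 4 libraries, each from 1 pool of 3 whole hearts of male C57Bl/6J mice labelled as aged 12 weeks. Mice ate a BCAA-control diet, with all essential amino acids, or a BCAA-free diet, without the branched-chain amino acids. The diets began 4 days before surgery and went on until the hearts were taken, 1 week after a sham operation or transverse aortic constriction (TAC), in which the aortic arch is narrowed so that the heart pumps against a higher pressure. The groups were thus control diet with sham, control diet with TAC, BCAA-free diet with sham and BCAA-free diet with TAC, and the comparisons ask how the propionylation that goes with pressure overload depends on dietary BCAA.

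Cardiac fibroblasts keep up the collagen network of the heart. Under pressure overload they proliferate and turn into matrix-secreting cells, and genes of the resting state are then often used to tell the states apart. Propionylation of histone lysines is laid down from propionyl-CoA, which the breakdown of isoleucine and valine supplies, and like acetylation it is found at active promoters and enhancers.

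With 1 library per group there is no replicate check and no SD. Higher and lower compare libraries, and a difference was called when it reached 1.5-fold, which is 0.58 in log2 units, by size alone. Ratios are log2((A + 1)/(B + 1)) of the average signal, a density of tags per length of region, and the intervals in brackets are 95% intervals for counting error only, from estimated tags. Estimated tags in the nearest regions ran from 34.0 (Dpt, control sham) to 3235 (Gsn, BCAA-free sham). In whole hearts, a larger share of fibroblasts and more of the mark per fibroblast cannot be told apart. No input library was used here, neither labels nor headers state the scaling of the libraries, and the median signal of all regions was 6.89 in control sham, 6.95 in control TAC, 7.10 in BCAA-free sham and 6.80 in BCAA-free TAC.

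The regions of the 10 genes were long. The nearest region of the member genes had a median length of 24.6 kb (2 to 54 kb), against 7.6 kb for all genes. A CpG island lay in the nearest region of 4 members (Tcf21, Pdgfra, Fbln1 and Gsn), whereas 72.8% of all genes had one. Of the 17 member regions, 14 had a peak call in all 4 libraries, as had 61.3% of all regions. Among the nearest regions of the members, 9 of 10 had a peak call in all 4. The exception was Dpt, whose 2-kb nearest region (chr1:164792400-164794399) had a call in BCAA-free sham alone, while a 20.8-kb region over its start (chr1:164795800-164816599) was called in all 4. A peak call was present in 17 of the 17 regions in BCAA-free sham, against 82% of all regions, and in 14 in each other library. Of all 29210 regions, control sham had a call in 22513, control TAC in 23009 and BCAA-free TAC in 22871. The same 3 regions lacked a call in the other libraries, namely this Dpt region and 2 regions of Dcn in the gene body and at its end.

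**Figure D1:**
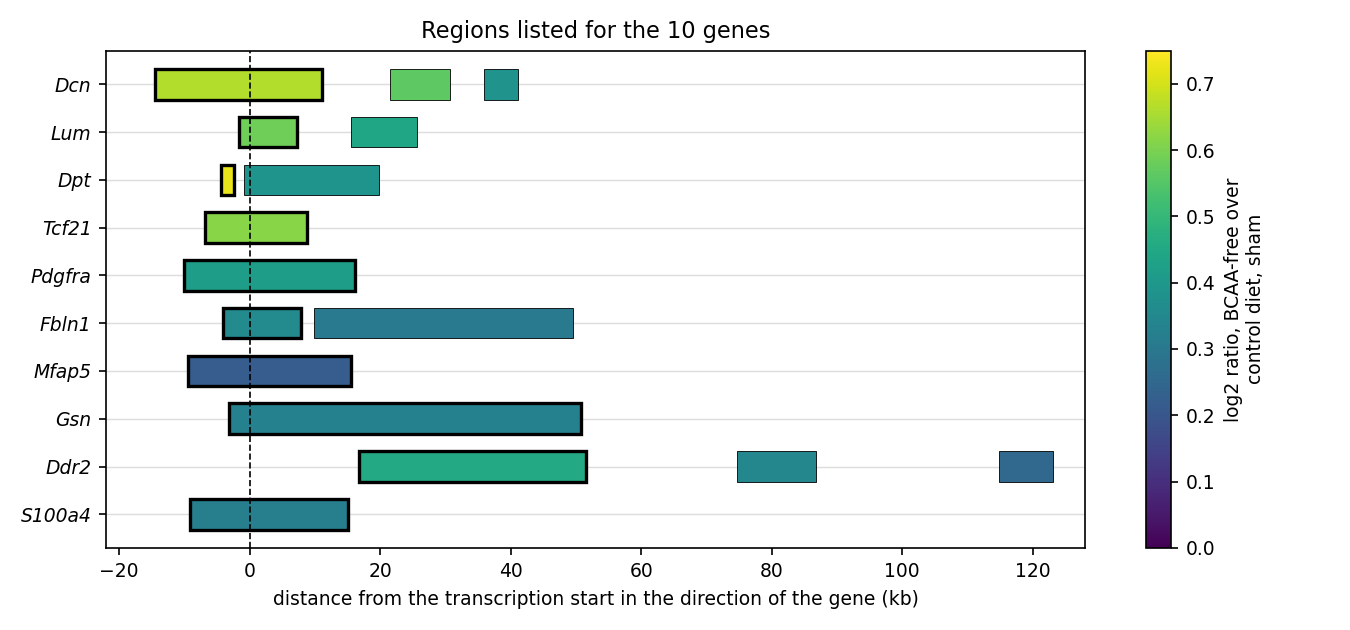
Regions listed for the 10 genes, drawn to scale by distance from the transcription start in kb in the direction of the gene, with the nearest region outlined in bold and each region coloured by its log2 ratio of BCAA-free over control diet in sham. All 17 regions have ratios above 0 (0.22 to 0.73), and those of Dcn, Lum, Dpt and Tcf21 include the highest. The nearest region of Dpt and the further regions of Dcn have a peak call in BCAA-free sham alone.

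Promoter sequences of 7 members were matched by symbol in the RefSeq promoter table (GRCm38.p6, the assembly that mm10 stands for). The table held none for Dcn, Lum and Mfap5. The starts lay 0 to 69 bases from those implied by the deposited distances. In 6 of the 7 the start lay inside a region listed for the gene, and the start of Ddr2 did not. The start used for Ddr2 (chr1:170088944, minus strand) lies inside the RefSeq gene, which reaches to 170110836. A region with no listed gene (chr1:170103000-170112799) covers that outer end. Of those 6, the 4 members with the largest ratio in their nearest region are shown, to give the bases at the start. The 250 bases before the start are given, 5′ to 3′ on the strand of the gene, with CG dinucleotides in capitals. For Dpt they lie outside the nearest region, in the region over the start. That region had a log2 ratio of BCAA-free over control diet in sham of 0.39. The stretches are chr1:164796413-164796662 (plus strand, Dpt), chr10:22820144-22820393 (minus strand, Tcf21), chr5:75152001-75152250 (plus strand, Pdgfra) and chr3:90603520-90603769 (plus strand, S100a4).
Dpt: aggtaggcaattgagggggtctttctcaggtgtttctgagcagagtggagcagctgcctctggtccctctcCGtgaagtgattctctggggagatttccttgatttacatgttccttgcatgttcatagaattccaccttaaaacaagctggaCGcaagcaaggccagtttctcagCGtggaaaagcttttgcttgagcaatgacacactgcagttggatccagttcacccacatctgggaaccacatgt
Tcf21: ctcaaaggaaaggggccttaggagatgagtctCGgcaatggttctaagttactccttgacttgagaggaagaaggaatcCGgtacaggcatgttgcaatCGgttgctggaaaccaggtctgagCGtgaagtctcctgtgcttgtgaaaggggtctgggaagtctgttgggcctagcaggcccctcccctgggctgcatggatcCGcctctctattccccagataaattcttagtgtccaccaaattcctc
Pdgfra: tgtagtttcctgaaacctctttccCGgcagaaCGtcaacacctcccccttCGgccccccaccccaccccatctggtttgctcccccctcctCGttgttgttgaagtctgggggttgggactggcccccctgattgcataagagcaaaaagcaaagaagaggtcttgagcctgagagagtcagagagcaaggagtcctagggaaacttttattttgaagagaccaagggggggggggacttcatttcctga
S100a4: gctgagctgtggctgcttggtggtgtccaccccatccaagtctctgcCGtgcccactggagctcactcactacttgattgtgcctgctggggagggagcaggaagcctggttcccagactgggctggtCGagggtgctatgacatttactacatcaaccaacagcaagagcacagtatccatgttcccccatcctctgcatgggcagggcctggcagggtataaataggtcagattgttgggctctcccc

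The printed 250 bases hold 3 CG dinucleotides for Dpt, 5 for Tcf21, 4 for Pdgfra and 2 for S100a4. Over the full 300 bases of the table, which reach 50 bases past the start, Fbln1 had 24 CG dinucleotides and Gsn 20, whereas the others had 2 to 8, and the median of 32851 promoters was 7. Dpt, Pdgfra, Ddr2 and S100a4 were below that median and Tcf21, with 8, was above it. Motifs were counted on both strands of the 300 bases. The TATA motif TATAAA was in 3 of the 7 (Dpt, Ddr2 and S100a4) and in 13.6% of all promoters. In Dpt it did not lie within the 250 bases before the start. The E-box CANNTG, the motif class that basic helix-loop-helix factors such as TCF21 bind, was in 5 of 7 against 72.3%, and its form CAGCTG, which is counted in CANNTG too, in 3 of 7 (Dpt, Fbln1 and Gsn) against 16.3%. The AP-1 motif TGANTCA (7.81% of all promoters) and the TEAD motif GGAATG (14.7%) were in 0 of the 7.

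The BCAA-free sham library had the highest average signal for 8 of the 10 genes, and the control sham library the lowest for 9. By peak height, BCAA-free sham was the highest library for 5 members and BCAA-free TAC for 6, with Tcf21 tied between them. Over all genes, BCAA-free sham was the highest library for 29.4% and control sham the lowest for 33.7%. The exceptions by average signal were Mfap5, highest in BCAA-free TAC, S100a4, highest in control TAC, and Gsn, whose control TAC value lay just under control sham. Summed over the 10 genes, the average signal was 75 in control sham, 85.9 in control TAC, 106.8 in BCAA-free sham and 95.7 in BCAA-free TAC. In control sham the levels per length ran from S100a4 (10.8) and Gsn (10.5), whose counting intervals overlap, through Pdgfra (8.87), Dcn (8.45) and Tcf21 (8.41), which lie close together, to Mfap5 (7.33), Ddr2 (6.64), Fbln1 (5.19), Lum (5.05) and Dpt (3.81).

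**Figure D2:**
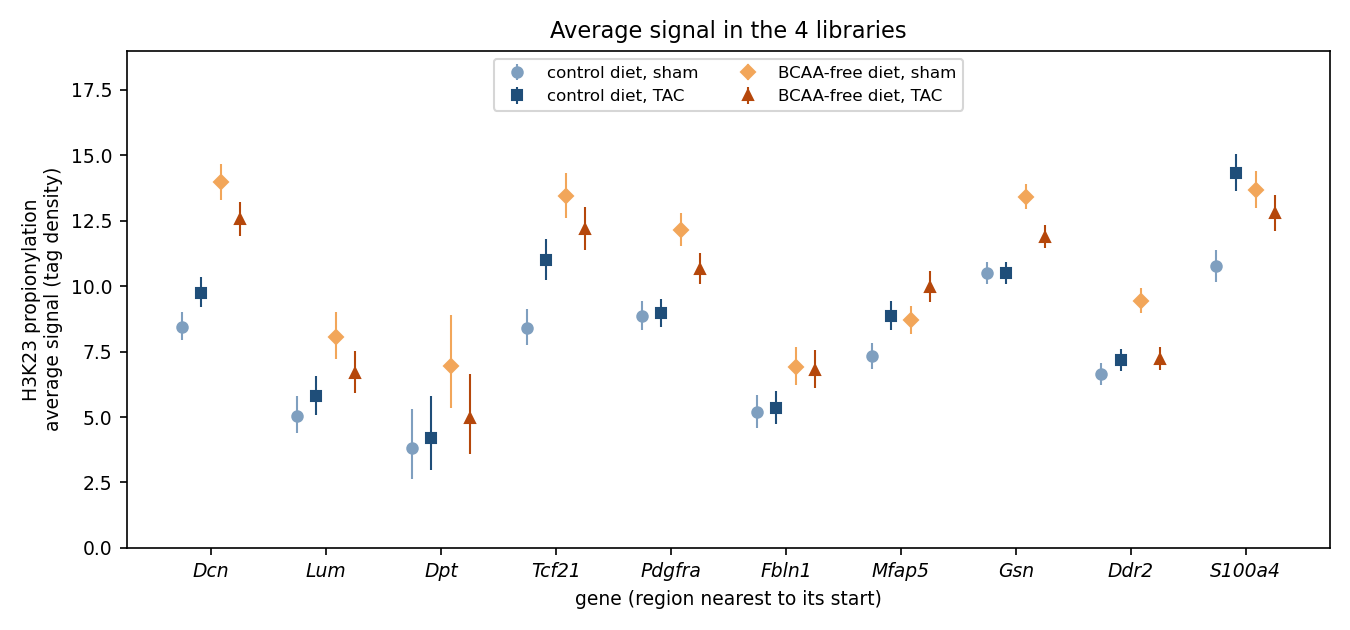
Average H3K23 propionylation signal (tag density, linear axis from 0) of the nearest region of each gene in the 4 libraries, with bars for the 95% exact Poisson interval of the estimated tags (counting error only). BCAA-free sham is the highest library for 8 genes and control sham the lowest for 9.

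In sham-operated hearts, the BCAA-free library exceeded the control-diet library at all 10 genes, whereas 57.7% of all genes lay above 0. Their median log2 ratio was 0.43, against 0.04 for all genes. The 4 members past 1.5-fold were Dpt, Dcn, Tcf21 and Lum, and 0 were lower past it. The Dpt region used here had a peak call in BCAA-free sham alone. It was thus included through the library in which it is high, which favours a high ratio. The Dpt region called in all 4 libraries had 0.39. Over all genes, 1.03% were higher past 1.5-fold and 0.488% lower. The counting intervals of all 10 members lay above 0, as did those of 16.1% of all genes.

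Among the matrix genes, Dcn encodes decorin, a small leucine-rich proteoglycan that binds collagen fibrils. The 25.6-kb region over its start (chr10:97465000-97490599) had a signal of 8.45 in control sham, 9.76 in control TAC, 13.97 in BCAA-free sham and 12.55 in BCAA-free TAC. Both BCAA-free libraries were thus above both control-diet libraries, and the sham ratio was 0.66 (0.56 to 0.77). Its weaker regions in the gene body (chr10:97501000-97510199) and at the gene's end (chr10:97515400-97520599) had sham ratios of 0.56 (0.31 to 0.82) and 0.39 (0.06 to 0.72). Both were called in BCAA-free sham alone, which favours a higher value in that library.

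Lum encodes lumican, another small leucine-rich proteoglycan, which lies downstream of Dcn on chromosome 10. Its region over the start (chr10:97563800-97572799) had 5.05 in control sham, 5.79 in control TAC, 8.08 in BCAA-free sham and 6.68 in BCAA-free TAC. The order of the libraries was that of Dcn, and the sham ratio was 0.59 (0.37 to 0.80), just past the threshold. The downstream region (chr10:97581000-97591199), which also lists 4930473O22Rik, had 0.44.

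The higher signal reached past both genes. From the region listed for Mir3966 on one side to that for Epyc, another gene of the proteoglycan family, on the other, the table held 8 regions over 251 kb. All 8 were higher on the BCAA-free diet in sham (0.31 to 0.66, median 0.53) and in TAC (0.13 to 0.37, median 0.30). Over all regions 57.6% lay above 0 in sham, and the medians were 0.04 in sham and −0.02 in TAC. The Dcn and Lum regions among the 8 are the member regions given above, and the locus was chosen after seeing the data. Its weaker Dcn regions were called in BCAA-free sham alone. The Epyc region had a signal of 5.225 in control sham, 4.68 in control TAC, 7.965 in BCAA-free sham and 6.35 in BCAA-free TAC.

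Dpt encodes dermatopontin, a matrix protein that binds decorin. Its nearest region, upstream of the start, had a low signal of 3.81 in control sham, 4.21 in control TAC, 6.95 in BCAA-free sham and 4.95 in BCAA-free TAC. BCAA-free sham stood apart from the other libraries and was the only one with a peak call there. The ratio of 0.73 rested on 62.0 against 34.0 estimated tags and had a wide interval (0.23 to 1.22). The region over the start had 6.11, 6.74, 8.31 and 7.43 in the same order and a sham ratio of 0.39 (0.25 to 0.53), which did not pass 1.5-fold.

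Fbln1 encodes fibulin-1, a glycoprotein of elastic fibres and basement membranes. Its region over the start (chr15:85202000-85213799) had 5.19 in control sham, 5.33 in control TAC, 6.92 in BCAA-free sham and 6.80 in BCAA-free TAC. The libraries split by diet, with little between sham and TAC, and the sham ratio was 0.36 (0.16 to 0.55). The 39.8-kb region in the gene body (chr15:85215800-85255599) had a sham ratio of 0.31.

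Mfap5, which encodes a microfibril-associated glycoprotein, had the smallest sham ratio of the 10, 0.22 (0.10 to 0.34). Its region (chr6:122504200-122529199) had 7.33 in control sham, 8.85 in control TAC, 8.69 in BCAA-free sham and 9.97 in BCAA-free TAC. It was the member in which both TAC libraries were above the sham library of the same diet with intervals that exclude 0.

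Tcf21, the basic helix-loop-helix factor of the epicardium-derived fibroblast lineage, had 8.41 in control sham, 11 in control TAC, 13.4 in BCAA-free sham and 12.2 in BCAA-free TAC. Control sham lay well under the other libraries, and the sham ratio was 0.62 (0.48 to 0.75). The region (chr10:22811400-22826999) also lists Gm10824, so its value belongs to both.

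Of the receptor genes, Pdgfra encodes the alpha receptor for platelet-derived growth factors, with which fibroblasts are sorted. Its region (chr5:75142200-75168399), which also lists Gm19583, had 8.87 in control sham, 8.97 in control TAC, 12.2 in BCAA-free sham and 10.7 in BCAA-free TAC. The sham and TAC libraries of the control diet could hardly be told apart, and the sham ratio between diets was 0.42 (0.31 to 0.52). Ddr2 encodes a collagen receptor tyrosine kinase. Its nearest region (chr1:170037400-170072199), inside the gene and 34.1 kb from the start, had 6.64 in control sham, 7.16 in control TAC, 9.45 in BCAA-free sham and 7.23 in BCAA-free TAC. Here BCAA-free sham stood alone above the other libraries, with a sham ratio of 0.45 (0.35 to 0.55). Further along the gene, the regions of Ddr2 had 0.35 and, in one that also lists Hsd17b7 and 3110045C21Rik, 0.25.

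Gsn encodes gelsolin, an actin-severing protein that is not restricted to fibroblasts. Its 54-kb region (chr2:35253200-35307199), which also lists Stom, had 10.5 in each control-diet library, 13.4 in BCAA-free sham and 11.9 in BCAA-free TAC, with a sham ratio of 0.33 (0.26 to 0.40). S100a4 encodes a calcium-binding protein that was named for fibroblasts and is also made by leukocytes. Its region (chr3:90594600-90618799) also lists S100a2, S100a3, S100a5 and S100a6 and had 10.8 in control sham, 14.3 in control TAC, 13.7 in BCAA-free sham and 12.8 in BCAA-free TAC. Control sham was the low library and the other 3 lay closer together, so the sham ratio between diets was 0.32 (0.22 to 0.42).

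**Figure D3:**
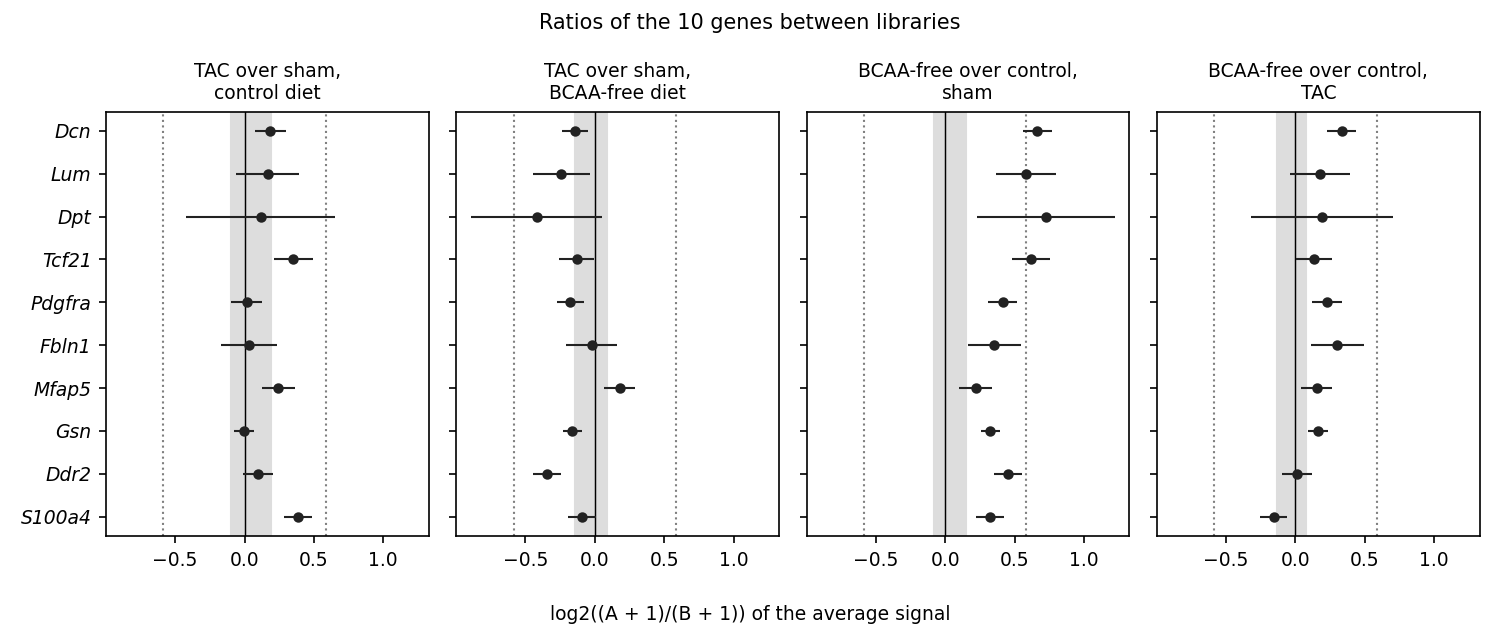
Log2 ratios of the average signal of the 10 genes in the 4 comparisons, with bars for the 95% counting interval, dotted lines at 1.5-fold in each direction and a grey band for the middle 50% of all genes. All 10 genes lie right of the band in the sham comparison of the diets (0.22 to 0.73), and 4 of them pass 1.5-fold there. Of these, Dpt is drawn from a region called in BCAA-free sham alone.

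In TAC-operated hearts, the BCAA-free library was again above the control-diet library for 9 of 10 members, with smaller ratios. The median was 0.17, against −0.04 for all genes, of which 40.8% lay above 0. Of the members 0 passed 1.5-fold, and over all genes 0.402% were higher and 0.488% lower past it. Dcn had the highest ratio at 0.33 (0.23 to 0.44), followed by Fbln1 at 0.30 (0.11 to 0.50) and Pdgfra at 0.23 (0.12 to 0.33). The others ran from 0.01 for Ddr2 to 0.19 for Dpt, and S100a4 had −0.15 (−0.25 to −0.06). Counting intervals lay above 0 for 6 members, as for 6.6% of all genes. The sham and TAC comparisons of the diets share no library.

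On the control diet, the TAC library was close to or above the sham library for all members. The median ratio was 0.14, against 0.05 for all genes, and 9 of 10 members lay above 0, as did 59.4% of all genes. Past 1.5-fold were 0 members, against 2.82% of all genes higher and 2.10% lower. S100a4 had 0.38 (0.28 to 0.48), Tcf21 0.35 (0.21 to 0.49), Mfap5 0.24 (0.12 to 0.36) and Dcn 0.19 (0.07 to 0.30), and these were the 4 members whose counting intervals lay above 0 (22.6% of all genes). The other members ran from −0.0014 for Gsn to 0.17 for Lum, with intervals that include 0. This comparison shares the control sham library, the lowest for 9 members, with the sham comparison of the diets.

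On the BCAA-free diet, 9 of 10 members had a lower signal in the TAC than in the sham library. The median ratio was −0.15, against −0.03 for all genes, of which 57% lay below 0. Past 1.5-fold were 0 members, against 0.85% of all genes higher and 0.68% lower. Counting intervals lay below 0 for 6 members, as for 18% of all genes. Ddr2 had −0.34 (−0.44 to −0.24), and its other regions had −0.36 and −0.34. Lum had −0.24 (−0.45 to −0.04), Pdgfra −0.18 (−0.28 to −0.07), Gsn −0.16 (−0.23 to −0.10), Dcn −0.14 (−0.24 to −0.05) and Tcf21 −0.13 (−0.26 to −0.01). Dpt had the lowest ratio, −0.42, with an interval that includes 0 (−0.89 to 0.05), and Mfap5, the member above 0, had 0.18 (0.07 to 0.29). With peak height in place of the average signal, the median was 0.015, with 5 of 10 members above 0. Fbln1 (−0.02) was at 0.03 with the same median in every library, so that 2 members then lay above 0. This comparison shares the BCAA-free sham library, the highest for 8 members, with the sham comparison of the diets.

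The TAC comparisons of both diets share no library. Set side by side, 8 of 10 members had a TAC ratio above 0 on the control diet and below 0 on the BCAA-free diet, against 26.4% of all genes. With the same median in every library these were 7 members, without Fbln1, and with peak height 3. For Dcn and Tcf21 both counting intervals excluded 0, as they did for 1.42% of all genes. With the same median in every library, their ratios on the BCAA-free diet were −0.087 and −0.074, smaller than the half-widths of these intervals. The TAC ratio on the BCAA-free minus that on the control diet was below 0 for all 10 members, with a median of −0.37 (−0.54 for Dpt to −0.05 for Fbln1), against −0.07 for all genes, of which 64% lay below 0. Counting intervals lay below 0 for 7 members, as for 15.5% of all genes. The difference was −0.48 (−0.67 to −0.29) for Tcf21, −0.48 (−0.62 to −0.34) for S100a4 and −0.44 (−0.59 to −0.29) for Ddr2. For 0 members did it pass 1.5-fold, against 0.969% of all genes higher and 1.92% lower. With the same median in every library, 2 members lay above 0, and the median was −0.30 against −0.003 for all genes. With peak height, 2 members lay above 0 as well. With 1 library per group this difference between diets could not be tested.

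**Figure D4:**
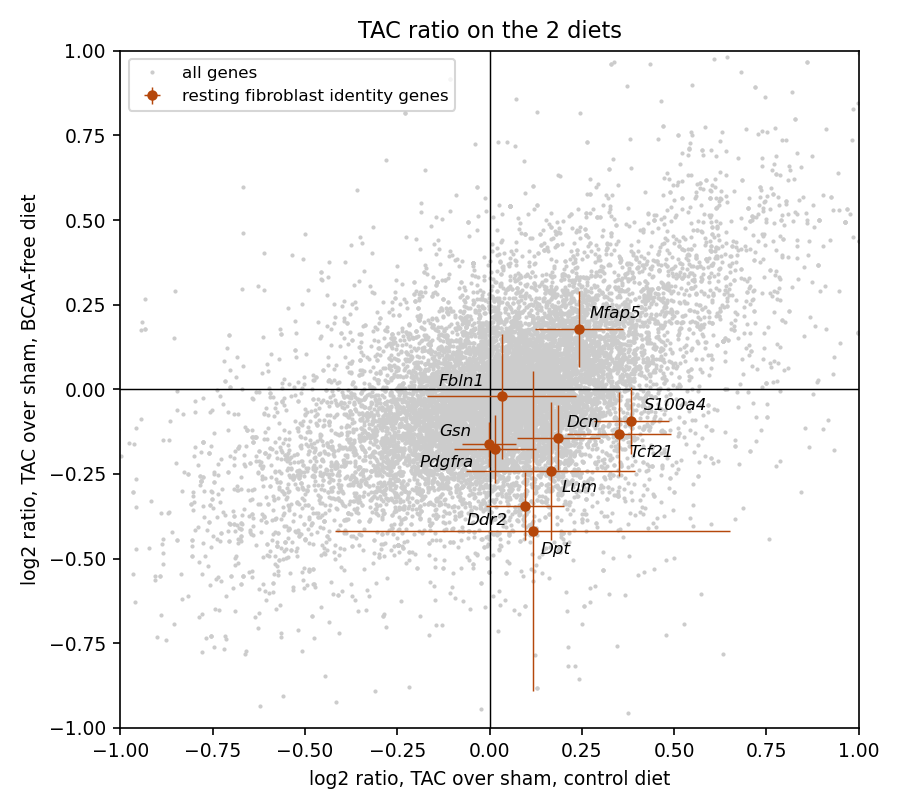
Log2 ratio of TAC to sham with the control diet on the x axis and with the BCAA-free diet on the y axis for the 10 genes, with bars for the 95% counting intervals, and for all genes in grey (59 genes outside the range of −1 to 1 are not drawn). Of the 10 genes, 8 lie right of 0 and below 0, Mfap5 lies above 0 on both axes and Gsn at −0.0014 and −0.16.

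Other regions of a gene mostly had ratios of the same sign as its nearest region. All 17 regions were higher in BCAA-free than in control sham (0.22 to 0.73, median 0.39), against 57.6% of all regions. The nearest region of Dpt and the weaker regions of Dcn had a peak call in BCAA-free sham alone. They were included through that library, which favours a higher value there, also against BCAA-free TAC. On the BCAA-free diet 16 of 17 were lower in TAC than in sham, against 60.1% of all regions, and on the control diet 15 of 17 were higher in TAC, against 55.4%. Among the members, the 6 without a CpG island had a median sham ratio between diets of 0.52 (0.22 to 0.73) and the 4 with one 0.39 (0.33 to 0.62). For all genes the corresponding medians were 0.05 without and 0.03 with a CpG island, and 2.94% and 0.312% of them were higher past 1.5-fold. Genes with a nearest region of at least 24.6 kb had a median of −0.01 over 2125 genes, 5 members included.

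Neighbouring regions were examined too, as the nearest region on each side of a member that lists no member. Their gaps to the member's regions ran from 2.6 kb to 1462 kb (both beside S100a4), so some are not close. A neighbour of Ddr2 (chr1:170103000-170112799, ratio between diets in sham 0.46) overlaps the RefSeq extent of that gene. The neighbours are thus not all separate from the members. The 19 neighbouring regions had a median ratio between diets in sham of 0.30, with 16 above 0, and 0 passed 1.5-fold. All regions had a median of 0.04, with 57.6% above 0. Next to Mfap5, a region listed for Rimklb had 0.52, against 0.22 for Mfap5 itself. Beside S100a4, a region listed for S100a2 and S100a3 had a signal of 10.3 in control sham, 13.9 in control TAC, 12.9 in BCAA-free sham and 12.8 in BCAA-free TAC, the order seen at S100a4. On the control diet the neighbours had a median TAC ratio of 0.05 with 11 of 19 above 0, against 55.4% of all regions. Of these neighbours 2 were higher past 1.5-fold. In the nearest regions of all genes, which are a different set of regions, 2.82% were. On the BCAA-free diet the median was −0.16 with 5 of 19 above 0, and 60.1% of all regions lay below 0.

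Other genes of the same families and cell type were read from lists. Of 18 further fibroblast identity genes, all with a region, 17 had more signal in BCAA-free than in control sham, with a median of 0.27, and 2 passed 1.5-fold. These were the scavenger receptor gene Scara5, with 7.22 against 3.91 and a ratio of 0.75 (0.25 to 1.24), and Serping1, which encodes the C1 inhibitor of complement, with 13.9 against 8.85 and 0.60 (0.44 to 0.76). Their median TAC ratio was 0.18 with the control diet and 0.015 with the BCAA-free one. Among the small leucine-rich proteoglycan genes other than Dcn and Lum, 11 of 12 had a region. Of the 11, 9 were higher in BCAA-free sham, with a median of 0.33, and 57.7% of all genes were higher. These genes are not separate loci. Ogn, Omd, Aspn and Ecm2 lie close together on chromosome 13, and the Epyc region is that of the Dcn and Lum locus above. Omd, which encodes osteomodulin, passed 1.5-fold with 0.65 (0.50 to 0.81) in a region that also lists Aspn and Cenpp. On the BCAA-free diet 2 of the 11 lay above 0 in TAC over sham, with a median of −0.24.

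Fibulin and microfibril genes other than the members (13 of 13 with a region) had a sham median between diets of 0.19, with Efemp1, a fibulin gene, past 1.5-fold at 0.68 (0.34 to 1.02). Fbln7 passed 1.5-fold in TAC over sham on the control diet with 0.86 (0.29 to 1.42). The middle of its region lies 7467 bases from the start. The genes for the PDGF ligands and the beta receptor did not go with Pdgfra in sham, with 2 of 5 above 0 and a median of −0.18. Other S100 genes had a median of 0.27 over 9 of 11 with a region, of which S100a3, S100a5 and S100a6 share the S100a4 region. The gelsolin family apart from Gsn had −0.06 over 5 of 6 genes.

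Genes of activated fibroblasts differed from the resting genes in their order. Of 19 such genes 17 had a region, and their summed signal was 100.5 in control sham, 130.2 in control TAC, 117.3 in BCAA-free sham and 138.8 in BCAA-free TAC. This sum was highest in the TAC library of each diet, whereas that of the 10 resting genes was highest in BCAA-free sham. By peak height, however, BCAA-free TAC was the highest library for 6 of the 10 resting genes and BCAA-free sham for 5, with Tcf21 tied. The median TAC ratio was 0.34 on the control diet, with 17 of 17 above 0, and 0.28 on the BCAA-free diet, with 14 of 17 above 0. On the control diet, Postn, a matrix protein gene of activated fibroblasts, had 0.65 (0.41 to 0.89) and the transcription factor gene Runx1 0.64 (0.45 to 0.83). On the BCAA-free diet, Tnc (tenascin C) had 0.75 (0.28 to 1.23) and Cthrc1 0.68 (0.28 to 1.09). The sham ratio between diets had a median of 0.15, with 0 of 17 past 1.5-fold. This difference between the lists was not tested.

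Markers of other cell types of the heart also differed between the libraries, and their part in the results was not tested. The summed signal of 10 cardiomyocyte genes was 105.5 in control sham, 70.4 in control TAC, 97.9 in BCAA-free sham and 79.7 in BCAA-free TAC. Macrophage genes (9 of 10 with a region, Adgre1 without one) had 62.8, 95.5, 62.2 and 81.2 in the same order, and 10 endothelial genes 109.1, 99.6, 97.1 and 92.0. Between diets in sham, the medians were −0.06 for cardiomyocyte, −0.01 for macrophage, −0.17 for endothelial and 0.17 for smooth muscle and pericyte genes (8 of 8 with a region). Epicardial and mesothelial genes (7 of 10 with a region) had 0.15 and Schwann cell genes (3 of 4) −0.03. On the control diet, Ttn (−0.92) and Actc1 (−0.89) of the cardiomyocyte genes were lower in TAC and Fcgr1 (1.13) and Tyrobp (0.89) of the macrophage genes higher, changes larger than that of any of the 10 fibroblast genes. In the same comparison Cnn1, a smooth muscle gene, had 0.60 and Vil1 of the gelsolin family 0.63. Both were read from regions away from the start, with middles 25046 bases from that of Cnn1 and 27415 from that of Vil1. The Cnn1 region also lists Elof1 and Acp5 and the Vil1 region Usp37, so the values belong to these genes too.

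**Figure D5:**
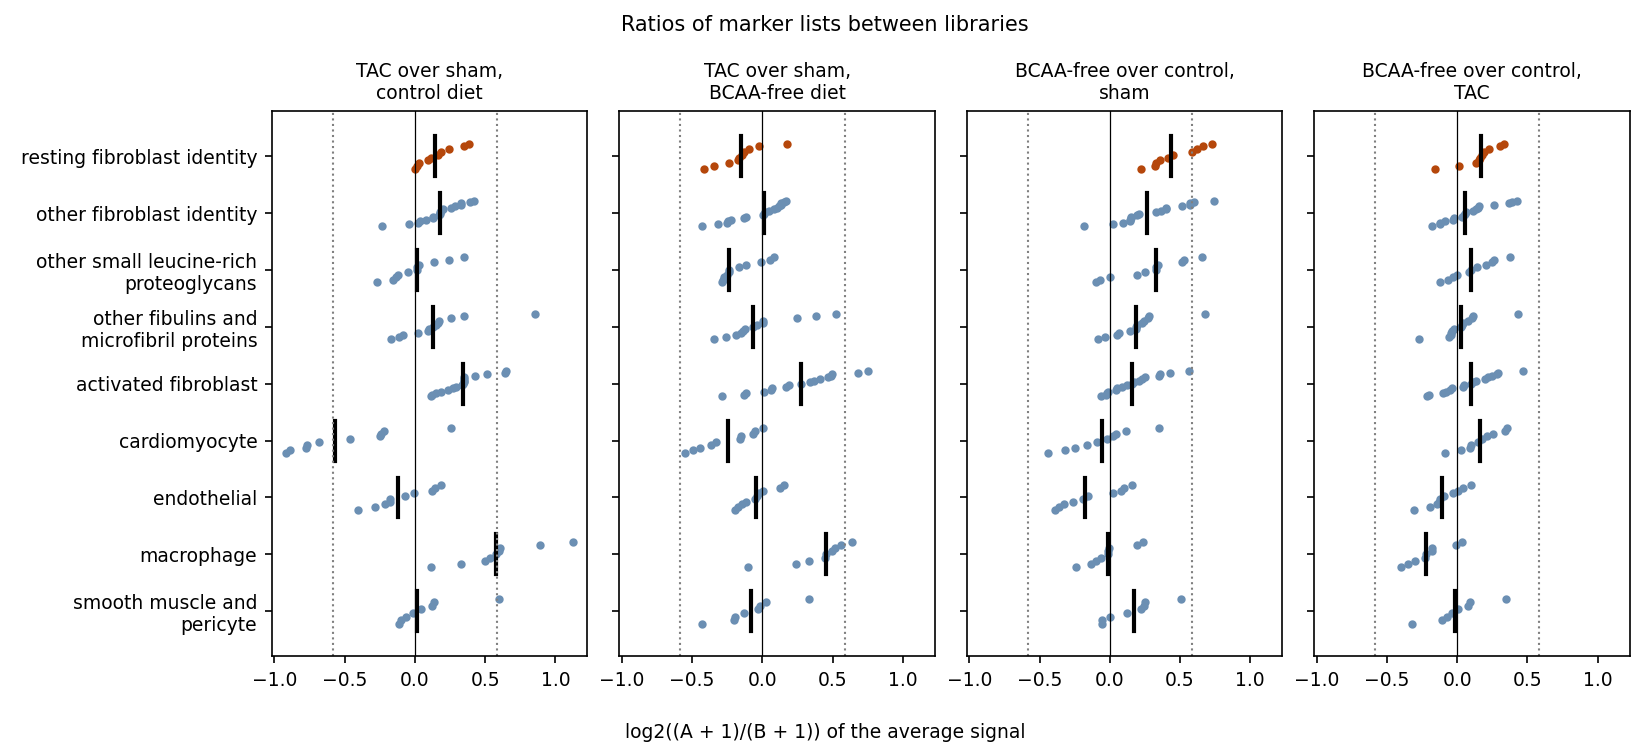
Log2 ratios of the average signal for the 10 genes (orange), their related lists and markers of other cell types (blue), 1 point per gene, with a black bar at the list median and dotted lines at 1.5-fold. In the sham comparison of the diets the 10 genes have the highest median (0.43) of the lists drawn, and in TAC over sham on the BCAA-free diet theirs is −0.15 while that of activated fibroblast genes is 0.28.

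The genes whose 4 values were most like the median pattern of the 10 were sought among 4718 genes with a region at the start and a signal above the median of all genes. By Euclidean distance between mean-centred log2 values over the 4 libraries, they were Slc1a5 (0.034), Pon3 (0.040), Fam198b (0.044), Zfp101 (0.046) and Zfand2b (0.050). Slc1a5 had a signal of 11.8 in control sham, 13.1 in control TAC, 17.2 in BCAA-free sham and 15.0 in BCAA-free TAC. The members themselves lay at a median distance of 0.17 from their own median pattern, with S100a4 (0.32) and Mfap5 (0.31) the farthest, and 135 of the 4718 genes lay within 0.17.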

How the data were processed

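H3K23 propionylation was measured by ChIP-seq in 4 libraries, 1 per group, with groups taken from the treatment labels. Per the submitters' processing notes, BWA, MACS2 and the mm10 build were used, without versions, parameters or roles. Per the file headers, the authors deposited 1 table in which peak regions of all libraries were merged, with, for each library, a mean tag density and its maximum (a signal each, called average signal and peak height) and a peak call. The log2 ratios in the authors' deposited table equalled the log2 quotient of the average signals to within 4.44e-16, and its tag numbers (a score of the larger of a pair of libraries, as deposited) equalled average signal times length divided by 224, which was used to estimate tags.

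The ratio log2((A + 1)/(B + 1)) of average signals was taken for all regions in each comparison, with no filter. A pseudocount of 1 understates ratios of weak regions. No p-value was computed. Counting intervals (95%, delta method on estimated tags) cover neither pools nor mice. Of 17640 genes, 11462 were listed with another gene in their nearest region. Coordinates of regions are as deposited. The steps were tested on simulated libraries. pandas 2.3.3, numpy 2.4.6 and matplotlib 3.10.9 were used.

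The members and lists were chosen with earlier results of these data known. All 10 members are named, with those genes of other lists past 1.5-fold (at most 2 per list and comparison) and the 5 genes most like the members, and 1 gene that the rule would name is not reported here. Alternatives were the pseudocount, peak height, scaling to 1 median, quantile normalisation, the region taken, a filter on signal, genes alone in their region and a 2-fold threshold. The region over the start, the neighbouring regions, the Dcn and Lum locus, the CpG island and length classes and the names Rimklb and Epyc were chosen after seeing the data.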

Additional observations from a re-analysis of the deposited data

Results flagged for a closer look

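Dcn and Tcf21 went in opposite directions after TAC on the 2 diets, with counting intervals that exclude 0 on both. The TAC ratio on the BCAA-free minus that on the control diet was −0.33 for Dcn (−0.14 minus 0.19) and −0.48 for Tcf21 (−0.13 minus 0.35). With peak height, the ratios on the BCAA-free diet were 0.03 for Dcn and 0 for Tcf21. With the same median in every library they were −0.087 for Dcn and −0.074 for Tcf21. These are smaller than the half-widths of the intervals above, 0.096 and 0.124. The scaling of the libraries is not stated, so the exclusion of 0 on the BCAA-free diet depends on it. With 1 library per group, the difference was not tested.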

How the results depend on the processing

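Of the 40 medians of the 10 genes recomputed over 5 comparisons and 8 other settings, 39 kept their direction and moved by no more than the median half-width of the members' counting intervals. The exception was peak height, with which the median of TAC over sham on the BCAA-free diet was 0.015 in place of −0.15. The median between diets in sham ran from 0.38 to 0.52 over all settings. The 4 members past 1.5-fold there became 2 (Dcn and Dpt) with the same median in every library, 2 of the 7 members that pass a filter on signal (Dcn and Tcf21), 1 with peak height (Lum, where 5.95% of all genes were higher past 1.5-fold) and 0 at a 2-fold threshold. With the region over the start, Dpt fell to 0.39 and the other 3 stayed past 1.5-fold. With peak height, 1 member also passed 1.5-fold between diets in TAC (Fbln1, higher, as were 3.25% of all genes) and 1 in the difference of the TAC ratios (Lum, lower, as were 10.5% of all genes), in place of 0. Without a pseudocount 1 passed it in that difference (Dpt, lower, as were 3.07% of all genes). Against these shares a count of 1 of 10 shows nothing particular to the members. The cause was not tested, apart from the threshold and the filter, which by construction leave fewer calls or genes. No paired analysis was possible because each group has 1 library and the result comes from no test. Depth limits Dpt most, with 34.0 to 62.0 estimated tags in its nearest region.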
